A study of Mus musculus with 4 samples.

Results

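The genes described here are 10 grouped as bile acid transporters and receptors: Slc10a2, Slc51a, Slc51b, Abcc2, Abcc3, Abcc4, the multidrug export pump gene Abcb1a, Gpbar1, Nr1h4 and S1pr2. They were chosen by name from a gene table of 50766 genes, of which 31920 had at least 1 transcript count (unique molecular identifier, UMI) in a cell that was kept. The cells came from the liver of mice of the genotype Sox9EGFP and are labelled as biliary epithelium (BECs, the lining of the bile ducts). The 4 mice gave 1 library each. In the sham group, 2 mice were sampled 7 days after sham surgery, and in the BDL group, 2 mice were sampled 7 days after bile duct ligation, which blocks the outflow of bile. Both groups carry the Sox9EGFP genotype, and the labels give no strain, age, sex or method of cell isolation. The comparison asks how the levels of these genes in BECs differ between an obstructed and an unobstructed biliary tree.

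Bile acids are detergents made by hepatocytes, secreted into bile and returned to the liver from the gut. BECs take up part of them from bile at the apical membrane, pass them to the blood side through basolateral exporters, and sense them through a nuclear receptor and membrane receptors that set fluid secretion, proliferation and the transcription of transport and synthesis genes. When bile flow stops, bile acids build up in the ducts and in the liver, which makes the balance of uptake and export in BECs a long-standing subject in cholestasis.

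Each cell table carries a group name of its own beside the sample label. That name was BDL for sham replicate 2 and sham for BDL replicate 2, and it matched the label for the other 2 libraries. Samples were grouped by their labels, and the effect of leaving out each of these 2 libraries is given with the calls on the 10 genes.

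The libraries kept 2861 and 3180 cells in the sham group and 2082 and 4060 cells in the BDL group, with median depths of 3258 and 2612.5 UMIs per cell against 7058 and 7794.5. Clustering gave 12 clusters of BEC-like cells, which held 91.8% and 81.5% of cells in the sham group and 94.8% and 94.5% in the BDL group. The 2 groups sat in different clusters: over 90% of the cells of 4 BEC-like clusters came from sham libraries, and over 90% of those of 7 came from BDL libraries. The former 4 held 97.5% and 98.6% of the BEC-like cells of the sham libraries, and the latter 7 held 97.8% and 99.3% of those of the BDL libraries. Sham replicate 2 and BDL replicate 2, whose cell tables name the other group, thus each lay with the other library of the same label. Values over all BEC-like cells thus compare different clusters, and the subclusters described further on were made without genes that differed between the groups. The summed level of the 11 biliary markers in them ranged from 10253 to 12348 UMIs per 1000000 (CPM). The remaining cells were mesenchymal-like (188, 419, 71 and 132 cells in sham replicates 1 and 2 and BDL replicates 1 and 2), endothelial-like, hepatocyte-like or macrophage-like. Values are given in that library order throughout. UMIs were summed per mouse and class, and the groups were compared with edgeR's quasi-likelihood test, with p-values adjusted over all genes tested (Benjamini-Hochberg). A call is an adjusted p under 0.05. A fit with 1 library left out has 1 library in 1 group, so its spread comes from the other group alone. Its p-values and calls are not comparable with those of all 4 libraries. Nothing in the labels says whether the mice were handled on separate days, so the p-values measure the spread between these 4 libraries.

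In BEC-like cells, 3 of the 4 ATP-driven export pumps fell after bile duct ligation and the pump Abcc4 rose. The largest of these differences was that of Abcb1a, 3.05-fold lower in the BDL group, and Abcc3 was 2.76-fold lower. Abcc4 was 2.04-fold higher, and Abcc2 was 1.47-fold lower, a call that was lost in 6 of its 18 alternatives. The uptake carrier Slc10a2, the basolateral exporter genes Slc51a and Slc51b and the receptors Nr1h4 and S1pr2 did not pass the test. Of the 10 genes, 9 had enough UMIs to be tested, and 4 of the 9 were called, 1 higher and 3 lower. Over all 16052 genes tested, 26.9% were called, 14.1% higher and 12.8% lower, so change after ligation was common across the transcriptome. The median log2 fold change (BDL over sham) was -0.20 for the 9 genes and -0.03 for all genes tested. The values of the 2 groups did not overlap for 7 of the 9 genes, Slc51a and S1pr2 being the other two, while 68.8% of all genes tested did not overlap.

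The promoters of 3 genes on which the results turn are shown because their transcripts moved in different directions or in different cells: Abcb1a fell in BEC-like cells, Abcc4 rose in them, and Nr1h4 fell in mesenchymal-like cells. Each is the 250 bases before the RefSeq start site, from a RefSeq table of GRCm38.p6, an older build than the GRCm39 that the submitters' processing notes name. Abcb1a is on the + strand at chr5:8566841-8567090, Abcc4 on the - strand at chr14:118706220-118706469, the farther upstream of 2 listed start sites, and Nr1h4 on the - strand at chr10:89506659-89506908. Capitals mark motif matches on either strand.
Abcb1a: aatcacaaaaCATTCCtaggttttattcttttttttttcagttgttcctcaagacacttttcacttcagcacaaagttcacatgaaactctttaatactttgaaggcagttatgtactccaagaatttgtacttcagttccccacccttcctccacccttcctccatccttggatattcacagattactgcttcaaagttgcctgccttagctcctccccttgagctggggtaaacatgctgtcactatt
Abcc4: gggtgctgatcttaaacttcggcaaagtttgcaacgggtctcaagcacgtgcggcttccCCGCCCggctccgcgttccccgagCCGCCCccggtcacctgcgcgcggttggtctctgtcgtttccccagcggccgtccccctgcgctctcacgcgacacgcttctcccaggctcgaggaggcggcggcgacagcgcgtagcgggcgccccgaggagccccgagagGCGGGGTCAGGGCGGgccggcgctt
Nr1h4: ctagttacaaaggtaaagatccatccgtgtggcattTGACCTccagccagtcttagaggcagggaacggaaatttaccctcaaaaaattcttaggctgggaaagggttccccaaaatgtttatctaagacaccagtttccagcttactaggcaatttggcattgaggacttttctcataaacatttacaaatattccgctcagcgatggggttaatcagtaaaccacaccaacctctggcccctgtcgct
The motifs searched on both strands were the nuclear receptor half-site AGGTCA, its inverted repeat with 1 base between, the AP-1 site TGANTCA, the antioxidant response core TGACNNNGC, the TEAD site GGAATG and the GC box CCGCCC. They were found in 14.0%, 0.00609%, 6.75%, 10.2%, 12.6% and 32.7% of 32851 promoter windows. The Abcb1a window held 1 TEAD match. The Abcc4 window held 3 GC boxes and 1 antioxidant response core, with the core and the last GC box side by side. The Nr1h4 window held 1 half-site. Promoters were listed for 9 of the 10 genes, Abcc3 being the other one. Among the windows not shown, those of Slc51a, Slc51b, Abcc2 and S1pr2 each held a half-site, those of Slc10a2 and Slc51b an AP-1 match, that of Slc51b a TEAD match, and those of Abcc2 and the second Abcc4 start site an antioxidant response core. None of the 9 genes' windows held the inverted repeat, the form bound by the bile acid receptor that Nr1h4 encodes, and a match is a description of the letters, not a site shown to be bound.

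Abcb1a encodes the multidrug export pump MDR1A, also called P-glycoprotein, which sits in apical membranes. In BEC-like cells its level was 147 and 165 CPM after sham surgery and 57.9 and 44.7 CPM after ligation. Both BDL libraries were far below both sham libraries. The group means were 156 ± 12.8 CPM in sham and 51.3 ± 9.30 CPM in BDL (SD, n = 2 each), with a log2 fold change of -1.61 (SE 0.155, edgeR adjusted p = 0.00115). Without sham replicate 2 the log2 fold change was -1.50, and without BDL replicate 2 it was -1.42. Each library was sequenced as 8 sublibraries, and in these the level ran from 129 to 223 CPM in sham and from 37.9 to 70.9 CPM in BDL. Sublibraries are splits of the cells of 1 mouse, so their ranges here and below show technical spread only. Its close paralog Abcb1b, the other mouse P-glycoprotein gene, was at 16.9, 17.9, 14.8 and 16.8 CPM and had a log2 fold change of -0.14 (SE 0.157, edgeR adjusted p = 0.536). Reads shared by both genes could be split between them in a way the sources used here do not state, so their sum was also tested, a choice made after seeing the data. The sum had a log2 fold change of -1.37 (edgeR adjusted p = 0.00114).

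Abcc3 encodes MRP3, a basolateral pump that exports conjugated bile acids and glucuronides to the blood side. Its level in BEC-like cells was 46.1 and 49.1 CPM after sham surgery and 15.4 and 18.9 CPM after ligation. The 2 groups were separated by more than the spread within either. The log2 fold change was -1.46 (SE 0.15, edgeR adjusted p = 0.00137). It was -1.40 without sham replicate 2 and -1.62 without BDL replicate 2. Over sublibraries it ran from 40.2 to 61.0 CPM in sham and from 13.8 to 22.8 CPM in BDL. Hepatocyte-like cells also held Abcc3, and hepatocyte marker RNA in BEC-like cells was at 1252 and 1284 CPM in sham against 148 and 115 CPM in BDL. Abcc3 stayed called with the 25% of cells richest in hepatocyte markers left out. The part of hepatocyte RNA in the result was not tested.

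Abcc4 encodes MRP4, a pump of the same family that exports bile acids together with glutathione, as well as cyclic nucleotides. Its level in BEC-like cells was 91.6 and 90.9 CPM after sham surgery and 178 and 194 CPM after ligation. Both BDL libraries were above both sham libraries. The log2 fold change was 1.03 (SE 0.110, edgeR adjusted p = 0.00157). It was 1.04 without sham replicate 2 and 0.97 without BDL replicate 2. Over sublibraries it ran from 72.0 to 130 CPM in sham and from 136 to 215 CPM in BDL.

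Abcc2 encodes MRP2, the canalicular and apical pump of bilirubin glucuronides and other organic anions. Its level in BEC-like cells was 31.2 and 28.5 CPM after sham surgery and 18.6 and 21.9 CPM after ligation. The groups did not overlap, but the gap was small beside those of the other pumps. The log2 fold change was -0.56 (SE 0.149, edgeR adjusted p = 0.0357). The call was lost without sham replicate 1 (edgeR adjusted p = 0.202), without sham replicate 2 (0.142) and without BDL replicate 1 (0.0630), and with DESeq2 in place of edgeR (adjusted p = 0.0732). Without BDL replicate 2 the log2 fold change was -0.68. Sublibrary values overlapped, from 17.1 to 43.4 CPM in sham and from 14.0 to 27.2 CPM in BDL. RNA of hepatocytes, which use this pump at the canaliculus, moved with it: the 10 hepatocyte markers summed to 1252 and 1284 CPM in the BEC-like cells of the sham libraries and to 148 and 115 CPM in those of the BDL libraries, and albumin (Alb) alone was at 854 and 991 CPM against 71.1 and 46.9 CPM. With the 25% of cells richest in hepatocyte markers left out of each library, the log2 fold change of Abcc2 was -0.67 (edgeR adjusted p = 0.0193). The part of hepatocyte RNA in the result was not tested.

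**Figure D1:**
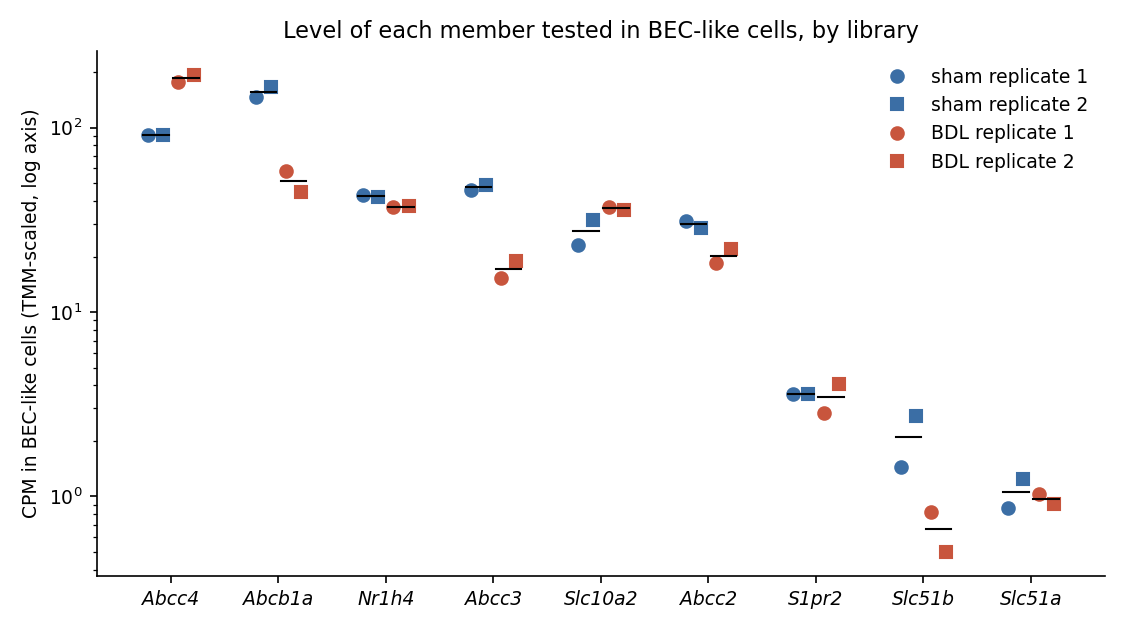
Levels in BEC-like cells of the 9 genes that were tested: the vertical log axis gives TMM-scaled CPM, and each point is 1 library (circles replicate 1, squares replicate 2, blue sham, red BDL), with the group mean as a black line. Counts are not divided by transcript length, so heights compare libraries within a gene and not genes with each other; Abcb1a and Abcc3 lie lower and Abcc4 higher in both BDL libraries.

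Slc10a2 encodes ASBT, the sodium-dependent carrier that takes up bile acids at the apical membrane. Its level in BEC-like cells was 23.2 and 31.7 CPM after sham surgery and 37.1 and 35.8 CPM after ligation. Both BDL libraries were above both sham libraries, with a wide spread between the sham libraries. The log2 fold change was 0.41 (SE 0.17), and the edgeR adjusted p was 0.117. Without the filter on low counts it was 0.54 and was called (edgeR adjusted p = 0.0147).

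Slc51a and Slc51b encode the subunits OSTα and OSTβ of the heterodimer that exports bile acids at the basolateral membrane. Both were close to the detection limit in BEC-like cells, with 9, 10, 15 and 29 UMIs of Slc51a and 15, 22, 12 and 16 UMIs of Slc51b among 8411684 to 32203595 UMIs per library. Slc51b was at 1.45 and 2.74 CPM after sham surgery and 0.828 and 0.501 CPM after ligation. Its log2 fold change was -1.68 (SE 0.536, edgeR adjusted p = 0.0590), and -2.0 without BDL replicate 1. Slc51b was called without the filter on low counts (-1.55, edgeR adjusted p = 0.0207). Slc51a was at 0.871, 1.25, 1.03 and 0.909 CPM, with a log2 fold change of -0.12 (SE 0.472, edgeR adjusted p = 0.871).

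Among the sensors, Nr1h4 encodes FXR, the nuclear receptor activated by bile acids. Its level in BEC-like cells was 43.3 and 42.1 CPM after sham surgery and 37.1 and 37.4 CPM after ligation. The BDL libraries were both lower, by a small margin that did not pass the test (log2 fold change -0.20, SE 0.115, edgeR adjusted p = 0.244). S1pr2 encodes a sphingosine 1-phosphate receptor that conjugated bile acids also activate, and it was at 3.58, 3.61, 2.83 and 4.07 CPM, a log2 fold change of -0.04 (SE 0.311, edgeR adjusted p = 0.934). Gpbar1 encodes TGR5, the membrane receptor of bile acids, and had too few UMIs to be tested: 2, 3, 12 and 1 in BEC-like cells. The 12 UMIs of BDL replicate 1 lay in 9 cells, with up to 3 in 1 cell. In mesenchymal-like cells, Gpbar1 had UMIs in the BDL libraries (4 and 3) and none in the sham libraries.

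The share of BEC-like cells with a UMI was compared after each cell was thinned to 1000 UMIs, since cells of the BDL libraries held more UMIs. Whether those cells were more deeply sequenced or held more RNA was not tested. Levels in CPM are relative to total UMIs, so a lower CPM is not a lower count per cell. For Abcb1a the share was 13.3% and 13.8% in the sham libraries (exact 95% binomial intervals 12 to 14.7% and 12.5 to 15.3%) and 5.02% and 4.66% in the BDL libraries (4.10 to 6.08% and 4.02 to 5.38%). For Abcc4 it was 7.91% and 7.36% against 14.4% and 15.6%, for Abcc3 4.57% and 4.71% against 1.57% and 2.01%, and for Slc10a2 2.24% and 2.45% against 4.16% and 3.31%. In mesenchymal-like cells, the larger of the other classes, the shares were 1.10%, 1.61%, 0% and 0.758% for Abcb1a, 0.549%, 1.88%, 1.41% and 1.52% for Abcc4, and 0.549%, 0.268%, 0% and 0% for Slc10a2. The BEC-like shares of these 3 genes were above those of mesenchymal-like cells of the same library. For each of the 4 genes the groups did not overlap, but the exact permutation test on 2 against 2 mice cannot go below p = 0.33, the value that each gave. Intervals cover counting error only.

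BEC-like cells were split further with genes that differed between the groups left out of the clustering, and 6 subclusters had at least 50 cells in every library. They are called by their leading genes: Nos2 (2781 cells), Ankrd1 (2366), Fos (1823), Ltbp2 (1407), Dmbt1 (1320) and Gm42209 (1303). Leading genes were taken over the cells of both groups together, so a name need not describe the cells of each group. By library, the Nos2 subcluster had 397, 268, 633 and 1483 cells and the Fos subcluster 570, 1100, 99 and 54. Of all genes tested in each, 19.3%, 29.5%, 16.6%, 19.6%, 13.5% and 20% were called in that order. Abcb1a was lower in the BDL libraries and called in 6 of 6, with log2 fold changes of -1.82, -1.63, -1.23, -1.82, -2.32 and -1.56 and edgeR adjusted p-values of at most 0.00157. It stayed lower in BDL in these 6 in every fit with 1 library left out. In the Dmbt1 subcluster it was at 214 and 235 CPM after sham surgery and at 53.3 and 39.7 CPM after ligation.

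The other pumps were called in fewer subclusters. Abcc4 was called in 4 of 6. Its log2 fold changes over all 6 ran from 0.54 (Ltbp2, not called) to 1.28 (Dmbt1, called). With 1 library left out it ran from 0.68 to 0.80 in the Nos2 subcluster and from 1.07 to 1.46 in the Dmbt1 subcluster. The call of Abcc4 in the Ankrd1 subcluster was lost without sham replicate 1. That in the Gm42209 subcluster was lost without sham replicate 1, sham replicate 2 or BDL replicate 2. In the Dmbt1 subcluster its level was 94.8 and 62.6 CPM after sham surgery against 160 and 199 CPM after ligation, and in the Nos2 subcluster it was 152 and 148 CPM against 257 and 247 CPM. Abcc3 was also called in 4 of 6, and in these 4 it stayed lower in BDL with any 1 library left out. It had its largest difference in the Fos subcluster (79.3 and 61.1 CPM in sham, 23.3 and 10.7 CPM in BDL, log2 fold change -1.94). The BDL values there rest on 10 and 2 UMIs in 99 and 54 cells, the value ran from -2.86 to -1.65 with 1 library left out, and Alb was among the leading genes of that subcluster. Abcc3 was not called in the Nos2 subcluster (-0.77, edgeR adjusted p = 0.0640) or the Dmbt1 subcluster (21.2 and 31.0 CPM against 12.4 and 25.2 CPM, -0.37, edgeR adjusted p = 0.544). Abcc2 was called in 1 of 6, the Gm42209 subcluster (-0.82, edgeR adjusted p = 0.0346), and there the call was lost with any 1 library left out (edgeR adjusted p from 0.0634 to 0.136). Nr1h4 was called in 0 of 6.

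Slc10a2, which did not pass the test over all BEC-like cells, was called in the Ankrd1 subcluster. There it was at 18.2 and 16.2 CPM after sham surgery and at 35.6 and 36.6 CPM after ligation (log2 fold change 1.04, edgeR adjusted p = 0.00189). The log2 fold change ran from 0.998 to 1.14 with each library left out in turn. In the Gm42209 subcluster, at 14.7, 36.5, 40.5 and 38.6 CPM, Slc10a2 was not called (0.76, edgeR adjusted p = 0.17). The value there ran from 0.03 to 1.5 with 1 library left out. The Ltbp2 subcluster had like levels, 20.2 and 16.7 CPM against 32.1 and 30.7 CPM, without a call (0.65, edgeR adjusted p = 0.141). In the Nos2 subcluster the sham libraries were higher, at 41.0 and 49.4 CPM against 34.8 and 35.3 CPM (-0.36, edgeR adjusted p = 0.230), and likewise in the Dmbt1 subcluster, at 59.4 and 48.1 CPM against 47.1 and 41.7 CPM (-0.25, edgeR adjusted p = 0.536). In the sham libraries the subclusters thus ran from 14.7 to 59.4 CPM of Slc10a2, and in the BDL libraries all but 1 value lay between 30.7 and 47.1 CPM, the exception being 1 low value in the Fos subcluster. Whether the difference between the groups depended on the subcluster was tested with terms for subcluster by group in 1 model, added after seeing the data. Of all genes, 14.4% were called for these terms, and of the 10 genes described here Slc10a2 (edgeR adjusted p = 0.00382) and Abcc3 (0.0459) were. Abcb1a (0.0507), Abcc4 (0.189), Nr1h4 (0.412) and Abcc2 (0.668) were not. Subclusters of 1 mouse come from 1 library, and the model treats them as separate samples.

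**Figure D2:**
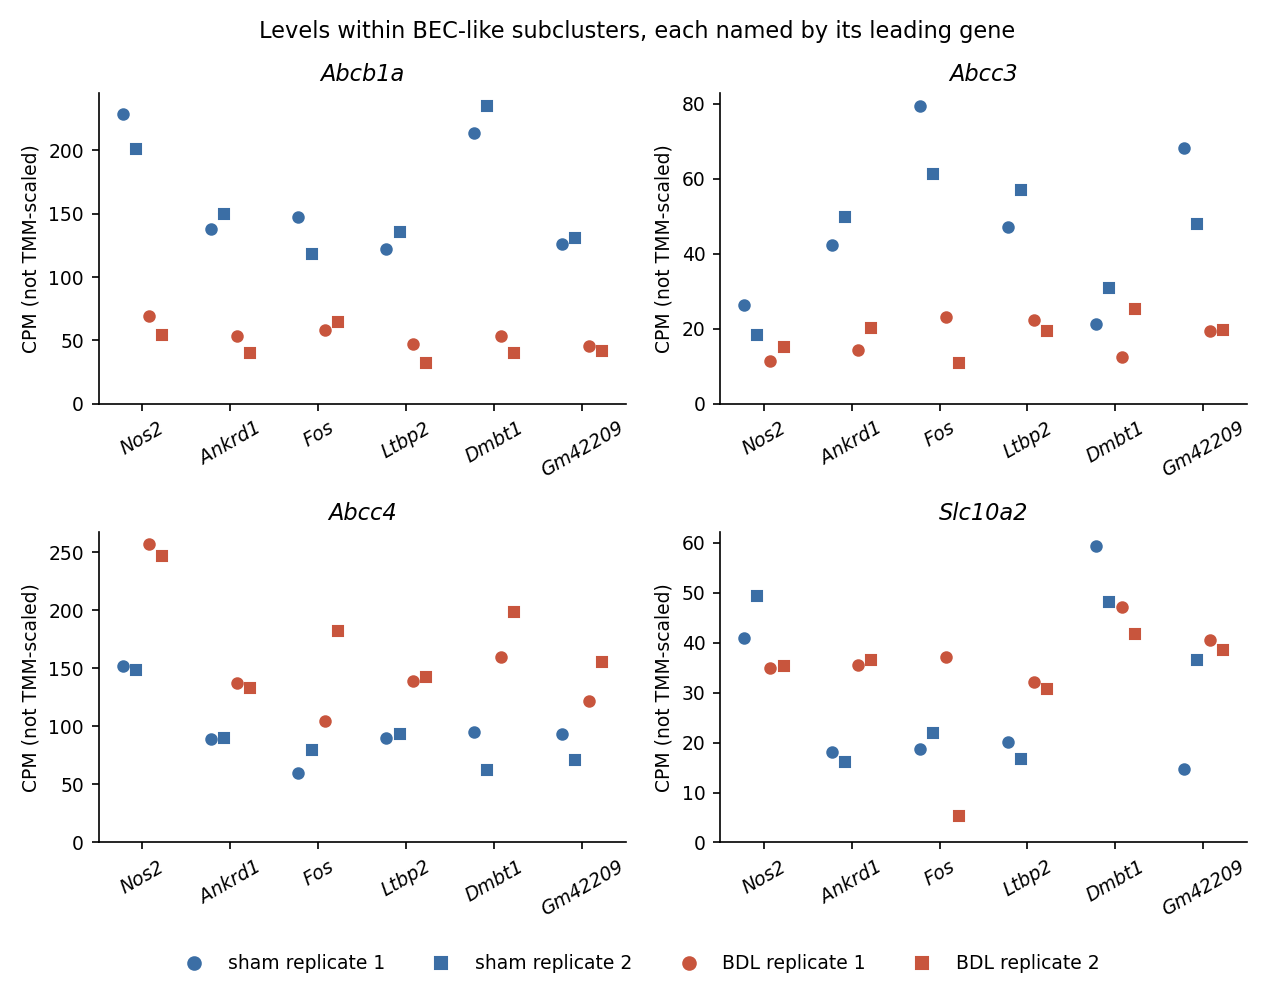
Levels of 4 genes within the 6 BEC-like subclusters: the horizontal axis gives each subcluster by its leading gene, the vertical axis CPM without TMM scaling, and each point is 1 library. Abcb1a is lower in both BDL libraries in all 6, while both BDL values of Slc10a2 lie above both sham values in the Ankrd1, Ltbp2 and Gm42209 subclusters and below them in the Nos2 and Dmbt1 subclusters, with a call in the Ankrd1 subcluster.

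In mesenchymal-like cells, the receptor gene Nr1h4 fell after ligation, while it did not pass the test in BEC-like cells. Its level was 311 and 475 CPM after sham surgery and 97.7 and 68.5 CPM after ligation, from 223, 561, 48 and 76 UMIs. Both BDL libraries lay far below both sham libraries, 4.84-fold in the model. The log2 fold change was -2.28 (SE 0.300, edgeR adjusted p = 0.00461). It was -1.94 without sham replicate 2 and -2.0 without BDL replicate 2. After thinning to 1000 UMIs, 25.3% and 35.4% of mesenchymal-like cells of the sham libraries had an Nr1h4 UMI, and 8.45% and 6.06% of those of the BDL libraries. Of the 10 genes 4 were tested in these cells and 1 was called, beside 6.57% of all 8804 genes tested, 4% of them lower. Of the remaining genes, Abcb1a was at 11.2, 35.6, 10.2 and 5.41 CPM (-1.79, edgeR adjusted p = 0.139), Abcc2 at 26.5, 26.2, 12.2 and 24.3 CPM (-0.42, edgeR adjusted p = 0.623) and Abcc4 at 16.7, 24.6, 8.14 and 26.1 CPM (-0.14, edgeR adjusted p = 0.912).

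The mesenchymal-like cells formed 2 clusters, and their shares moved with the group. The cluster led by Colec10, Fcna and Ntm, with the stellate cell gene Lrat among its top 10 genes, held 56.4% and 76.1% of mesenchymal-like cells after sham surgery and 38.0% and 16.7% after ligation. The rest were in a cluster led by Mgp, Fbn2 and Col1a1. Most of the Nr1h4 UMIs were in the first cluster, at 608 and 637 CPM in sham against 265 and 320 CPM in BDL, and the second held 32.0, 53.0, 24.6 and 31.2 CPM. Within clusters, a test added after seeing the data, the log2 fold change was -1.18 in the first (SE 0.251, edgeR adjusted p = 0.0832, with 0.819% of genes called) and -0.67 in the second (edgeR adjusted p = 0.467, with 4.9% of genes called). The call over all mesenchymal-like cells was thus not kept within either cluster. With the 10 genes left out of the variable genes, the values were -1.19 (edgeR adjusted p = 0.0733) and -0.66 (0.469). The first cluster had only 27 and 22 cells in the BDL libraries.

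**Figure D3:**
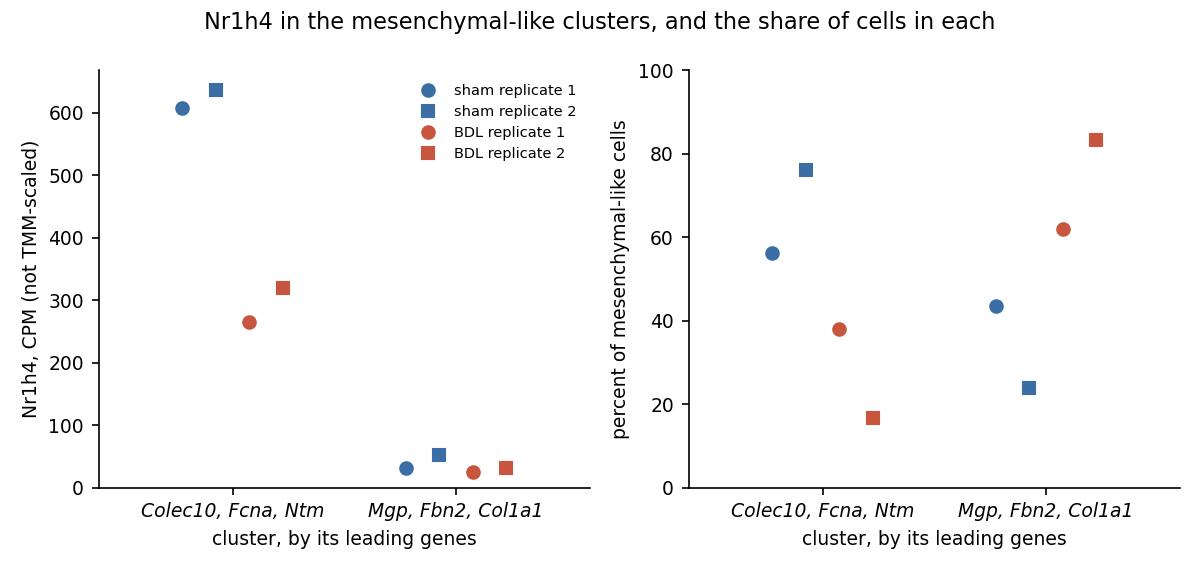
Nr1h4 in the 2 mesenchymal-like clusters: the left panel gives its CPM without TMM scaling and the right panel the percent of mesenchymal-like cells in each cluster, with 1 point per library. The Colec10 cluster holds the higher Nr1h4 level in every library and a smaller share of the cells in both BDL libraries.

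The difference between the groups was compared between BEC-like and mesenchymal-like cells with an interaction term. Both classes come from the same 4 mice, and the model held the mouse as a block. For Nr1h4 the log2 fold change was higher in BEC-like than in mesenchymal-like cells by 2.01 (SE 0.312, edgeR adjusted p = 4.26e-05). It was 1.66 without sham replicate 2 and 1.81 without BDL replicate 2. With all 4 libraries it was the only call among the 8 of the 10 genes that were tested, and 6.11% of all genes tested were called. For Abcb1a the log2 fold change differed by 0.06 (edgeR adjusted p = 0.983), for Abcc4 by 1.11 (0.168) and for Slc10a2 by 2.17 (0.249), the last resting on 11 UMIs in mesenchymal-like cells. Without BDL replicate 2, that of Abcc4 was 2.36. The paralog Abcb1b, at 65.6, 49.1, 95.6 and 129 CPM in mesenchymal-like cells, differed by -1.20 (SE 0.333, edgeR adjusted p = 0.0237), a call that was lost without sham replicate 2 (-0.96, edgeR adjusted p = 0.350) and without BDL replicate 2 (-0.98, edgeR adjusted p = 0.345).

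**Figure D4:**
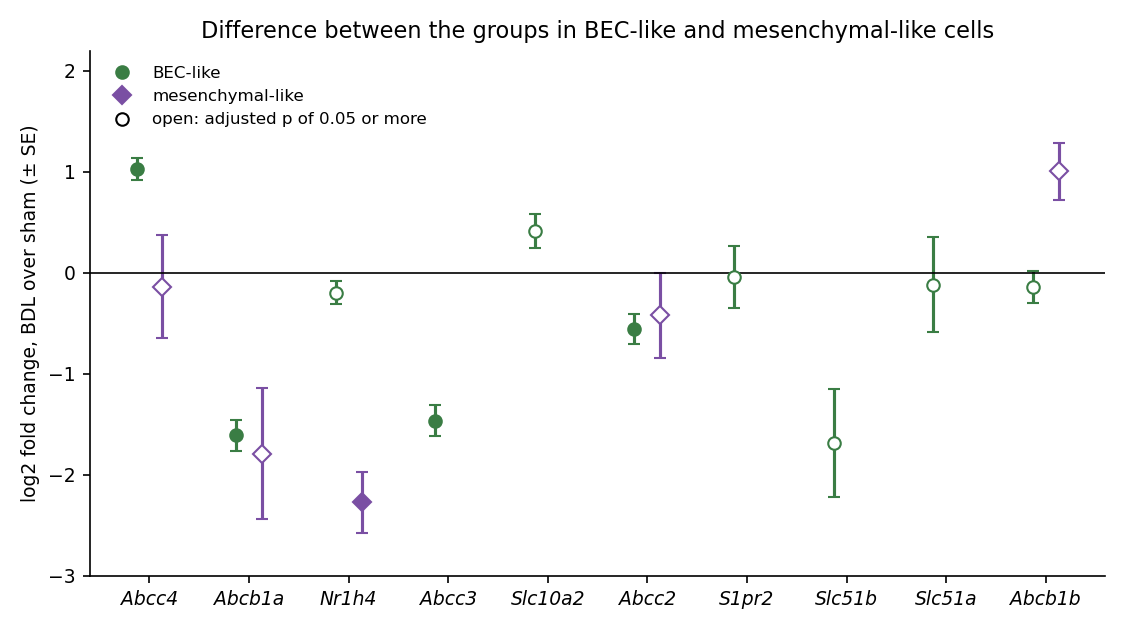
Log2 fold change of BDL over sham with its SE for each gene tested in BEC-like and in mesenchymal-like cells (n = 2 mice per group); filled symbols passed the test and open ones did not. Nr1h4 stands at -0.20 in BEC-like and at -2.28 in mesenchymal-like cells, and Abcc4 is the called gene above 0.

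Levels in the smaller classes are given without a test, as CPM without TMM scaling. Hepatocyte-like cells (36 in sham replicate 2, 7 and 35 in the BDL libraries, with the 2 cells of sham replicate 1 left out) held Abcc2 at 160, 264 and 334 CPM, where BEC-like cells held 18.4 to 33.0 CPM. The UMIs lay in 3 of 36, 5 of 7 and 30 of 35 cells, so the sham value was carried by 3 cells. In the same cells Slc10a2 was at 14.6, 73.2 and 119 CPM and Abcc3 at 36.4, 146 and 103 CPM, the sham values resting on 2 UMIs in 2 cells and on 5 UMIs in 1 cell. The hepatocyte-like cells of the BDL libraries also carried biliary markers at 11734 and 10374 CPM, near the level of BEC-like cells, where those of sham replicate 2 carried 2731 CPM. Endothelial-like cells held Abcc4 at 160, 200, 103 and 68.6 CPM, from 40, 122, 19 and 34 cells. They were made of a larger cluster and one led by Ccl21a, Mmrn1 and Lyve1 with 3, 3, 3 and 13 cells, and in the larger cluster alone Abcc4 was at 173, 199, 157 and 129 CPM. Nr1h4 had no UMI in macrophage-like cells.

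**Figure D5:**
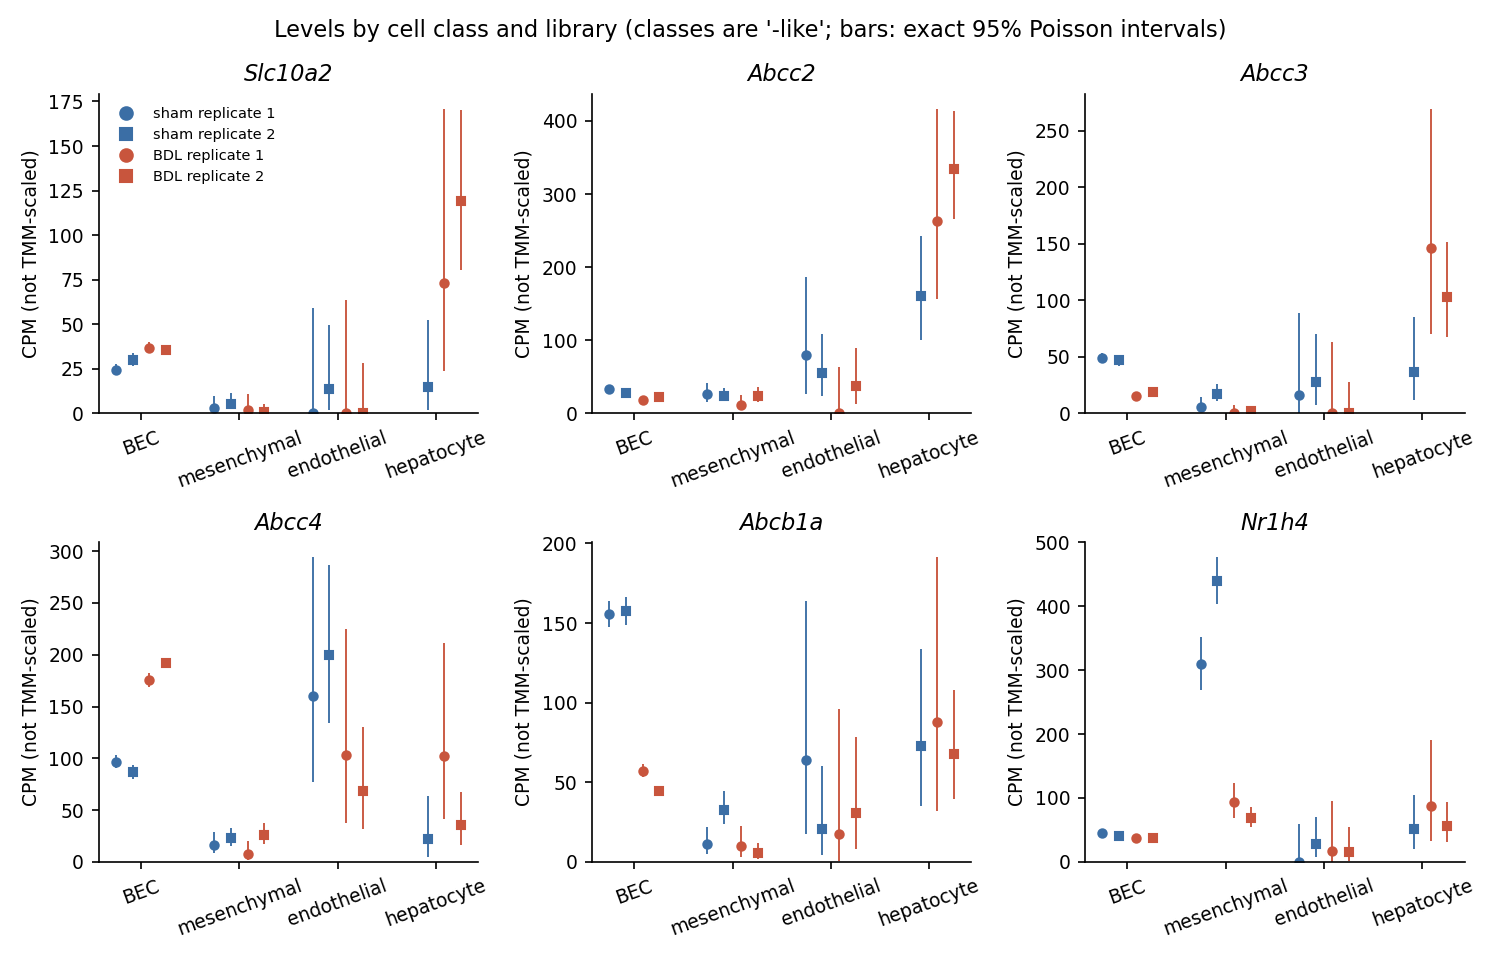
Levels of 6 genes by cell class: the vertical axis gives CPM without TMM scaling, each point is 1 library with at least 5 cells of that class, and bars are exact 95% Poisson intervals, which cover counting error only. Abcc2 is highest in hepatocyte-like cells, Nr1h4 in the mesenchymal-like cells of the sham libraries, and Abcb1a in the BEC-like cells of the sham libraries.

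The genes whose level ran most like that of each gene over the 15 clusters of at least 50 cells are a description, since clusters share libraries and depth. For Abcc2 they were the hepatocyte genes Apoa1 (Pearson r = 0.956), Cps1 (0.952) and Fbp1 (0.946). For Slc10a2 they were Acadl (0.962), Lsr (0.933) and Scyl2 (0.929), for Abcc3 Nherf1 (0.931), Ttr (0.915) and Cab39l (0.9), and for Abcc4 Cpd (0.954), Zkscan3 (0.926) and Mbtps2 (0.922). For Abcb1a they were Tuba4a (0.917), Shb (0.911) and Trim26 (0.901), and for Nr1h4 Mbd5 (0.894), Crip2 (0.894) and Ryk (0.893).

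Other genes of bile acid handling were taken from 4 lists with 49 genes, of which 35 were tested in BEC-like cells. Of these, 5 rose, 12 fell and 18 did not pass the test, so that 17 (48.6%) were called, beside the 26.9% of all genes given above. Their median log2 fold change was -0.34. The count was 5 of 36 (13.9%) with sham replicate 1 left out and 4 of 35 (11.4%) with sham replicate 2 left out, where 8.84% and 8.85% of all genes tested were called. It was 13 of 35 (37.1%) without BDL replicate 2, where 26.1% of all genes were called. Of the 17 genes, 4 were called without sham replicate 2 (Abcc1, Acox2, Nr0b2 and Slco2b1) and 11 without BDL replicate 2. Hepatocyte marker RNA, at 1252 and 1284 CPM against 148 and 115 CPM in these cells, was lower along with Nr0b2, Hnf4a, Nr1i2, Klb, Slc10a1, Abcb4, Baat and Akr1d1, genes that hepatocytes also use, while Acox2 and Nr5a2, which hepatocytes use too, rose. Its part in these results was not tested.

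Among 12 nuclear receptors and FXR partners and targets, 10 were tested, 5 fell and 1 rose (Nr5a2), with a median log2 fold change of -0.58. Nr0b2 encodes SHP, the repressor that FXR induces, and was at 6.58 and 8.60 CPM after sham surgery and 0.483 and 0.721 CPM after ligation (-3.58, edgeR adjusted p = 0.00130). Hnf4a, a hepatocyte and epithelial nuclear receptor, fell from 359 and 402 CPM to 191 and 241 CPM (-0.82, edgeR adjusted p = 0.00949). Rxra, the partner with which FXR binds DNA, fell from 21.8 and 22.8 CPM to 10.8 and 13.3 CPM (-0.87, edgeR adjusted p = 0.0124), and Nr1i2, which encodes the xenobiotic sensor PXR, had a log2 fold change of -1.23 (edgeR adjusted p = 0.0141). Klb, the co-receptor of FGF15 and FGF19, also fell. Nr0b2 kept its call in every alternative, with an edgeR adjusted p of at most 0.0131. Hnf4a lost its call in 1 of 18 alternatives (without sham replicate 2, 0.0724), Rxra in 3 of 18 (at most 0.0925) and Nr1i2 in 2 of 17 (at most 0.112). Klb was not called without sham replicate 1 (0.263), sham replicate 2 (0.17) or BDL replicate 2 (0.134), and Nr5a2 was not without sham replicate 1 (0.0815), sham replicate 2 (0.244) or BDL replicate 2 (0.0760).

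Among 16 further transporters of bile acids and bile lipids, 12 were tested, 3 rose (Slco2b1, Abcc1 and Atp8b1) and 2 fell (Slc10a1 and Abcb4). The organic anion carrier gene Slco2b1 rose from 0.968 and 1.74 CPM to 5.86 and 6.05 CPM (2.16, edgeR adjusted p = 0.00687) and kept its call in every alternative. Abcc1, which encodes the export pump MRP1, rose from 77.1 and 113 CPM to 155 and 176 CPM (0.80, edgeR adjusted p = 0.0234). The phospholipid floppase gene Abcb4 had a log2 fold change of -2.64 (edgeR adjusted p = 0.00736), and Slc10a1, the uptake carrier of hepatocytes, one of -1.95 (edgeR adjusted p = 0.0276). Both were under 5 CPM in every library. Calls were lost in 2 of 18 alternatives for Abcc1 (edgeR adjusted p of at most 0.13), in 1 of 17 for Abcb4 (0.0585, without sham replicate 2) and in 5 of 16 for Slc10a1 (at most 0.183). Atp8b1 was not called without sham replicate 1 (0.203) or sham replicate 2 (0.108).

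Among 11 genes of synthesis and conjugation, 7 were tested, 2 fell (Baat and Akr1d1) and 1 rose (Acox2, 1.33, edgeR adjusted p = 0.0257). Among 10 sphingosine 1-phosphate genes, 6 were tested, 3 fell and none rose. These were the kinase gene Sphk1 and the phosphatase genes Sgpp1 (-0.83, edgeR adjusted p = 0.0264) and Sgpp2 (-0.68, edgeR adjusted p = 0.0268). Calls were lost in 4 of 16 alternatives for Akr1d1 (edgeR adjusted p of at most 0.166), in 2 of 18 for Acox2 (0.12), in 5 of 18 for Sgpp1 (0.143) and in 4 of 18 for Sgpp2 (0.147). Without sham replicate 1, sham replicate 2 or BDL replicate 2, neither Baat (0.294, 0.168 and 0.168) nor Sphk1 (0.101, 0.218 and 0.0682) was called. In mesenchymal-like cells, 2 of the 17 genes of the 4 lists that were tested were called (11.8%, beside 6.57% of all genes), Slco2b1 and Rxra, both lower in the BDL libraries. Slco2b1 was at 128 and 99.9 CPM against 32.6 and 13.5 CPM (-2.45, edgeR adjusted p = 0.00963), and Rxra at 99.1 and 107 CPM against 50.9 and 47.8 CPM (-1.07, edgeR adjusted p = 0.0396). The call of Slco2b1 was lost without sham replicate 1 (edgeR adjusted p = 0.0514), and that of Rxra without sham replicate 1 (0.149), sham replicate 2 (0.141) or BDL replicate 2 (0.135). Slco2b1 was thus called higher in BEC-like cells and lower in mesenchymal-like cells of the BDL libraries, and the difference between the classes was not tested for it.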

How the data were processed

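Single-cell RNA was measured in 4 mouse liver libraries. Cells were fixed and given barcodes in split pools, with random hexamer and oligo(dT) priming, per the labels' protocols. The deposited matrices hold whole-number counts of transcripts (UMIs) per cell and gene, with no normalization, per the file headers. The build is GRCm39 per the submitters' processing notes, and the aligner, counter and cell threshold are not given in the sources used here.

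Of 12211 cells, 7 under 500 UMIs, 10 over 20% mitochondrial UMIs and 11 doublets called by Scrublet were removed, leaving 12183. The caller marked 0.0902% of cells and was taken as not having worked, so doublets largely remain. No cell barcode was shared by libraries. Replicates differed beyond sampling noise. The 2000 most variable genes, 30 principal components, 20 neighbours and Leiden clustering at resolution 1 gave 18 clusters (scanpy 1.11.5, leidenalg 0.10.2, scikit-learn 1.9.0, scipy 1.17.1). A cluster was named where at least 3 markers of a class were found in at least 5% of its cells at over 2-fold the level in the other cells, a rule set after seeing the data. The 12 BEC-like and 6 other clusters differ from the 9 and 6 of the submitters' design text, which may come from the rebuilt names.

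Counts were summed per mouse and class and tested with edgeR 4.0.16 (R 4.3.3, limma 3.58.1), with TMM scaling, filterByExpr and a quasi-likelihood test at an adjusted p of 0.05. DESeq2 1.42.0, other filters, sublibraries and clusterings and leaving out each library were alternatives. The tests were checked on simulated data. The 10 genes, the 4 lists and the marker lists were chosen with earlier results of these data known. All 10 genes were named, and of the list genes the 12 called genes with the lowest adjusted p. The other 5 called list genes (Nr5a2, Klb, Atp8b1, Baat and Sphk1) were named after their values were seen. Subclusters left out the 6532 genes with an unadjusted p under 0.05 between the groups.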

Additional observations from a re-analysis of the deposited data

Results flagged for a closer look

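For 4 genes the difference between BDL and sham differed between groups of cells by a test of that difference. Of all genes tested, 6.11% were called between the 2 classes and 14.4% between the subclusters. The log2 fold change in BEC-like cells minus that in mesenchymal-like cells came to 2.01 for Nr1h4, the bile acid receptor FXR, and to -1.20 for the P-glycoprotein gene Abcb1b. The call of Abcb1b was lost without sham replicate 2 (edgeR adjusted p = 0.350) and without BDL replicate 2 (0.345), the libraries whose cell tables name the other group. Both values stand beside a shift of mesenchymal-like cells between 2 clusters, within which Nr1h4 had edgeR adjusted p-values of 0.0832 and 0.467. In sham replicates 1 and 2 and BDL replicates 1 and 2, Abcb1b had levels of 28.8, 24.9, 115 and 90.5 CPM in the cluster led by Colec10, and of 98.7, 85.2, 81.9 and 135 CPM in the cluster led by Mgp, which held more of the cells after ligation. Within BEC-like cells, the terms for subcluster by group had an edgeR adjusted p of 0.00382 for Slc10a2, the apical bile acid uptake carrier, and of 0.0459 for Abcc3, the basolateral pump. The value of Abcc3 was close to that of Abcb1a (0.0507), which was not called. Slc51a, Slc51b, Gpbar1 and S1pr2 were not tested for these terms. The groups of 2 libraries are too small for a check of single outlying samples.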

How the results depend on the processing

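No paired analysis was possible because no label numbers the replicates, and the numbers used here, given in sample order, only name libraries. With 2 mice per group, exact permutation tests cannot fall below p = 0.33, and genes under about 3 CPM rest on few UMIs. Over their alternatives, Abcb1a (19), Abcc3 (18) and Abcc4 (18) stayed called in BEC-like cells, and Abcc2 lost its call in 6 of 18. These alternatives include fits with 1 library left out, where 1 group has 1 library. The 17 calls of the 4 lists became 9 with at least 10 CPM required, where 8839 genes were tested in place of 16052. Called list genes such as Nr0b2, Slco2b1, Abcb4, Akr1d1 and Slc10a1 were under 10 CPM in every library and could not be tested there. The calls of the lists were 10 in the odd sublibraries (13470 genes tested). With clusters led by a marker of another class left out, chosen after seeing the data, they were 9 (15390 genes tested). Of the 10 genes, calls in mesenchymal-like cells numbered 3 when low counts were not filtered out. The share called among all genes is not given beside these counts, so they do not show calls lost or gained. Genes called in any BEC-like subcluster went from 5 to 3 with differing genes kept in the clustering. Signs turned for these values, none of them a call itself, and the cause was not tested. In BEC-like cells, the log2 fold change of Slc51a was 0.0113 with no filter, 0.00324 with libraries thinned alike, and -0.36 to 0.17 with 1 library left out, and that of S1pr2 was 0.0925 with no filter, 0.0225 in odd sublibraries and -0.34 to 0.20 with 1 left out. With 1 left out, that of Abcc4 in mesenchymal-like cells ran from -1.35 to 0.31, and the class difference from -0.32 to 0.46 for Abcc2 and from -0.98 to 0.54 for Abcb1a. Shares of BEC-like cells with a UMI (BDL minus sham, percentage points) also turned. Without thinning, where the BDL cells hold more UMIs, they were 4.73 (Abcc2), 0.145 (Gpbar1), 9.44 (Nr1h4) and 1.39 (S1pr2). At 2000 UMIs they were 0.0483 (Gpbar1) and 0.0498 (S1pr2). With 1 library left out they ran from -0.00881 to 0.0708 for Slc51a and from -0.0595 to 0.0419 for Gpbar1.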

Other observations

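A subcluster of 15 BEC-like cells, led by Tmem238l, Abcg8 and Isx and left unnamed, held Abcc2 at 1202 CPM, where the other BEC-like cells held 23.0 CPM. The 24 Abcc2 UMIs lay in 10 of the 15 cells, with up to 8 in 1 cell, and the cells came from all 4 libraries (8, 3, 3 and 1). Abcb1a was at 551 CPM in them, from 11 UMIs of which 7 came from BDL replicate 1, and at 78.4 CPM in the other BEC-like cells of both groups together, and Nr1h4 at 150.2 CPM, from 3 UMIs, against 38.7 CPM. The cholesterol exporter genes Abcg5 and Abcg8 were at 250.3 and 350.4 CPM against 4.25 and 2.38 CPM. Abcc3, Abcc4 and Slc10a2 had 0 UMIs among the 19975 UMIs of these cells, where the level of the other BEC-like cells would give 0.521, 3.21 and 0.668 UMIs. For Abcc3 and Slc10a2 a lower level was thus not detectable at this depth, and for Abcc4 it was not tested. The median depth of these cells was 900 UMIs. Alb was at 100.1 CPM, from 2 UMIs, against 296 CPM, and Epcam at 701 CPM, from 14 UMIs, against 994 CPM. The cells were picked out after their values were seen, and their leading genes are a description.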
